A study of Mus musculus with 12 samples.

Results

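The genes of the mitochondrial respiratory chain and of ATP synthase were examined on arrays of mouse heart. Membership was set by gene symbols of the array annotation: every probe with 1 gene symbol that starts with Nduf, Sdha to Sdhd, Uqcr, Cox4 to Cox8 or Atp5 was taken. The choice of these symbols was made with earlier results of these data known. This gave 95 of the 36227 probes, for 85 of the 18069 genes that had a probe with 1 symbol, and the probe with the highest mean stood for each gene. By role, 30 genes encoded subunits of complex I, 4 of complex II, 8 of complex III, 17 subunits or isoforms of complex IV and 16 subunits of ATP synthase. The other 10 were assembly factors (Ndufaf1, Ndufaf3 to Ndufaf8, Sdhaf2 and Sdhaf4) and Ndufs5-ps, a pseudogene of a complex I subunit whose near-identical parent could contribute to its signal. A further 6 probes carried a symbol of the set among several and were left unnamed. The 10 genes with more than 1 probe are described by the brighter one.

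Balb/c mice had received 30 mg/kg body weight of DMA, a compound whose abbreviation the labels do not expand, or the vehicle DMSO by gavage. Hearts were taken 24 h or 48 h later, which gave the groups DMSO 24 h, DMA 24 h, DMSO 48 h and DMA 48 h with 3 arrays each. Total RNA came from myocardium and each group's RNA was isolated as a pool, while the labels call the arrays biological replicates. P-values below therefore measure the spread between these samples, which may be technical. Values are log2 intensities of a 1-colour array on which biotinylated cRNA was stained with Cy5, and a difference of 1 on this scale is a doubling. Array medians were 6.03 to 6.04 at 24 h and 6.35 to 6.36 at 48 h, so a level set across the times carries that offset, and differences between DMA and DMSO were taken within a time. In bulk tissue, fewer cells of a type and less RNA per cell cannot be told apart.

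Complexes I and II feed electrons from NADH and succinate into ubiquinone, complex III passes them to cytochrome c, and complex IV hands them to oxygen. Complexes I, III and IV pump protons across the inner mitochondrial membrane, and ATP synthase (complex V) uses the returning protons to make ATP. Heart muscle is dense in mitochondria and covers most of its energy need this way, and heart uses its own isoforms of several small complex IV subunits. The genes analysed here lie in the nucleus, and none of the genes carried by mitochondrial DNA was analysed.

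Many nuclear genes of the chain share promoter motifs of the factors NRF1, GABP (an ETS factor) and YY1, and the RefSeq promoters (GRCm38.p6, 300 bases around the annotated start) of 69 of the 85 genes could be matched by gene ID. The NRF1 motif (GCGCA and GCGC with any 1 base between them), searched on both strands as the others were, was in 27.5% of them against 7.17% of 17492 protein-coding genes. CCGGAAG for ETS factors was in 27.5% against 12.9%, and AAGATGGCG for YY1 in 10.1% against 2.14%. Some letters are shared, since CCGGAAG ends as AAGATGGCG starts, so 1 stretch can hold both. At least 1 of the 3 motifs was in 38 of the 69 promoters, or 55.1%, against 3493 of the 17492 protein-coding genes. A match of letters is a description and not a site. Matches were not compared with the differences between DMA and DMSO, and Ndufb2 and Atp5b, described as fully below, had 0 matches. As examples with a match, the promoters of 3 genes whose arrays are described below are shown: Uqcr11 (chr10:80406772-80407071, minus strand, 1 ETS match), Atp5g2 (chr15:102670998-102671297, minus strand, 1 NRF1 match) and Sdhd (chr9:50603800-50604099, minus strand, 1 NRF1 and 1 ETS match). Each is written along the gene's own strand, with the matches in capitals, CTTCCGG being the ETS motif on the opposite strand.
Uqcr11: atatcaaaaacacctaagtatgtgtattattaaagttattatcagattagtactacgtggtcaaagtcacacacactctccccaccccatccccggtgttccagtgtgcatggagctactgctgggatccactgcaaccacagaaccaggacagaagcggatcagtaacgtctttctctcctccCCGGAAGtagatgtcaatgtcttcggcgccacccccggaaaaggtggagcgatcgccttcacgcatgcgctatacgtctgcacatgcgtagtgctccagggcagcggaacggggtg
Atp5g2: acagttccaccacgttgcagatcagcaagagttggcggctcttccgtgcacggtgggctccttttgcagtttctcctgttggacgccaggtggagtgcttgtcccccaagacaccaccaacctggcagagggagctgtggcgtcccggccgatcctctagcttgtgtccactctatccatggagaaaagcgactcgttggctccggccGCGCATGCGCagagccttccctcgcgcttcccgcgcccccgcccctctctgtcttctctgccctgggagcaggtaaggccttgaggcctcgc
Sdhd: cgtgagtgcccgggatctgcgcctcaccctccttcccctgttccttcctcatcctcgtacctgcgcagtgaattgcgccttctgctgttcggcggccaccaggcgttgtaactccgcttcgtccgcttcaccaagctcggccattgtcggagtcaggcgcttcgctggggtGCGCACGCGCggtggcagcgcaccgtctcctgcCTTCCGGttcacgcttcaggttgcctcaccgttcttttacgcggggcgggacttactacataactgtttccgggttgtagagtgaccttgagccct

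The first feature of the respiratory chain on these arrays was how few values it had. Only 21 of the 85 genes (24.7%) had a value on all 12 arrays, against 68.4% of all 18069 genes. At the other end, 32 genes (37.6%) had a value on 2 arrays or fewer, against 0.642% of all genes, and 44 (51.8%) on 9 or fewer, against 1.49%. The probe of Uqcrb, a small complex III subunit, had no value on any array, and 22 genes had 1 value each. These counts are for the brightest probe of each gene. Dimmer probes of Ndufa12 and Uqcrc2 had 12 values and that of Atp5g1 had 11, while that of Uqcrh had none.

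**Figure D1:**
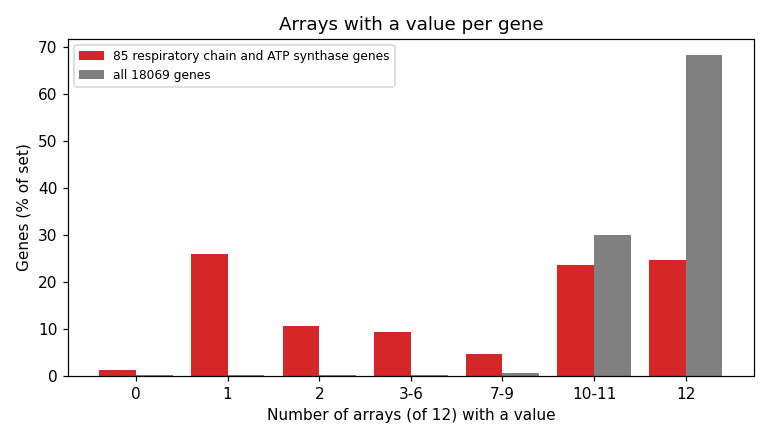
Share of genes (y axis, percent of each set) by the number of the 12 arrays with a value (x axis), for the 85 respiratory chain and ATP synthase genes (red) and all 18069 genes (grey). Of the 85 genes, 24.7% had a value on all 12 arrays, against 68.4% of all genes.

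By share, ATP synthase lacked the most, with 13 of 16 subunit genes at 9 values or fewer. Complex IV followed with 10 of 17, complex I with 16 of 30, complex II with 2 of 4 and complex III with 3 of 8. None of the 10 assembly factors and non-subunits had fewer than 10 values. Missing values clustered at the top of the scale over all probes: 57.5% of the 174 probes with a mean from 14 to 16 had no value on 3 or more of the 11 arrays other than DMA 24 h replicate 3, against 1.48% of the probes from 13 to 14 and at most 0.813% in any lower band. Array maxima lay between 14.53 and 15.12. Why values are missing is not given in the sources used here and was not tested.

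All 22 genes with 1 value had it on the same array, DMA 24 h replicate 3. These were Ndufa1, Ndufa3, Ndufa6, Ndufa12, Ndufa13, Ndufb9 and Ndufs6 of complex I, Cox5b, Cox6b1, Cox6c, Cox7a1, Cox7a2, Cox7b, Cox7c and Cox8b of complex IV, and Atp5e, Atp5g3, Atp5h, Atp5k, Atp5md, Atp5mpl and Atp5o of ATP synthase. They read 9.82 to 15.08 there, with a median of 13.08. Over all probes, 145 had no value on the other 11 arrays, 53 of these had one on DMA 24 h replicate 3, and 22 of the 53 belonged to this set. Another 9 genes had 2 values, and for each of them 1 of the 2 was again on that array: Ndufa2, Ndufb11, Ndufc1 and Ndufv2, Uqcrh, Cox4i1, and Atp5d, Atp5g1 and Atp5j. In all 9, DMA 24 h replicate 3 read lower than the other array, by the widest margin in Atp5g1 at 9.46 against 14.22 and by the narrowest in Ndufa2 at 14.36 against 14.77.

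Counted by array, DMA 24 h replicate 3 lacked a value for 1 of the 85 genes and the other 11 arrays for 31 to 54. Within groups the count was 46, 40 and 33 in DMSO 24 h and 41, 39 and 1 in DMA 24 h. It was 54, 45 and 42 in DMSO 48 h and 36, 40 and 31 in DMA 48 h, so at 48 h all 3 DMA arrays lacked fewer values than all 3 DMSO arrays did. Over all probes, DMA 24 h replicate 3 lacked the fewest values (0.889%) and DMSO 24 h replicate 1 the most (3997 probes). The 48 h counts over all probes were 2498, 1509 and 768 in DMSO and 765, 675 and 954 in DMA, so there the groups overlapped. Because presence of a value was tied to an array, it was not used as a measure of DMA.

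**Figure D2:**
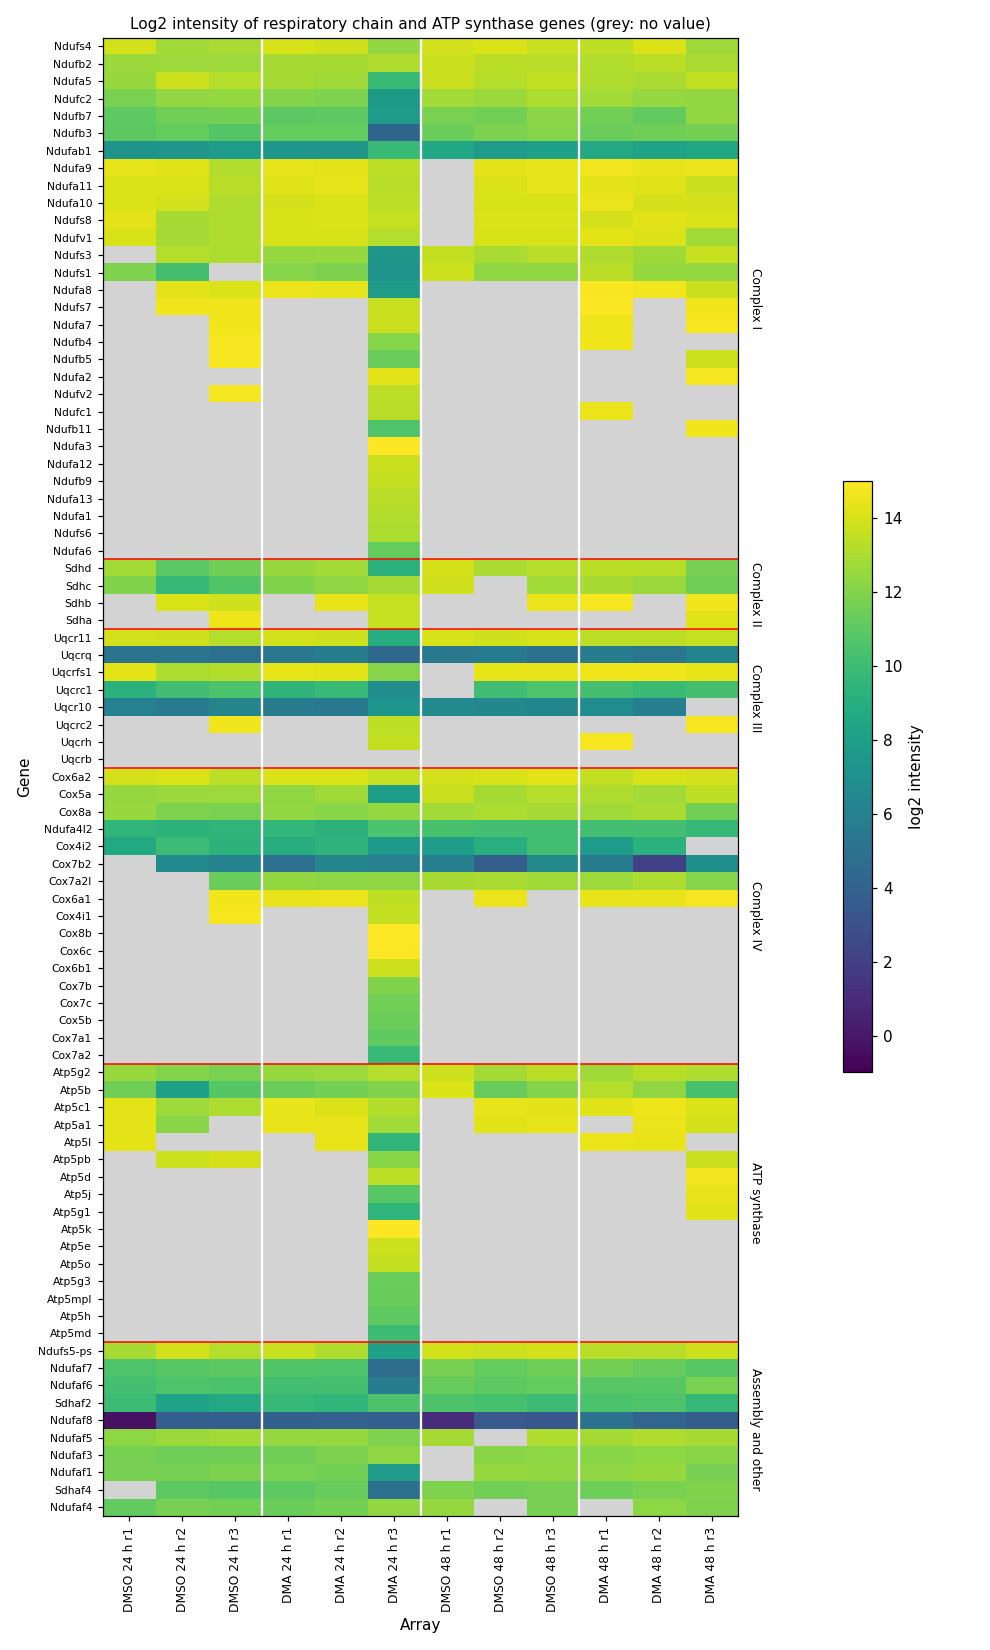
Log2 intensity (colour) of each of the 85 genes (rows, by complex) on each of the 12 arrays (columns, by group), with grey where the array had no value. Grey fills 13 of 16 ATP synthase rows on 3 or more arrays, and the column of DMA 24 h replicate 3 is almost without grey.

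DMA 24 h replicate 3 also stood apart in the values it had. Over the 55 genes measured on it and on other 24 h arrays, it correlated at 0.688 with the median of those arrays. For the other 11 arrays, each set against the remaining arrays of its time, this value was 0.930 to 0.990. These are descriptions across genes that share an array and a labelling. The median of the 55 genes was 1.02 below the other 24 h arrays, while over all probes this array lay 0.34 above them at the median. Among the 41 genes that could be tested, 14 (34.1%) were more than 2 log2 units below the lowest other 24 h array, against 9.52% of all tested probes, and 0 were more than 2 above the highest.

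These 14 came from complexes I, III and IV and from the assembly factors. Ndufb3, a small membrane-arm subunit of complex I, read 4.15 on DMA 24 h replicate 3 and 10.71 to 11.25 on the other 5 arrays of 24 h. At 48 h Ndufb3 read 11.39, 11.82 and 12.06 in DMSO and 11.35, 11.55 and 11.66 in DMA, lower in each pair with overlap. Cox5a, a nuclear subunit of complex IV, read 7.97 against 12.36 to 12.70. Ndufaf7, a methyltransferase that acts in complex I assembly, read 4.71 against 10.62 to 10.97. Its dimmer probe was not low there, at 6.88 against 5.47 to 7.53. The others were Ndufa5, Ndufb7, Ndufc2, Ndufs1 and Ndufs3 of complex I, Uqcr11 and Uqcrc1 of complex III, Ndufaf1, Ndufaf6 and Sdhaf4, and Ndufs5-ps. The dimmer probe of Ndufs3 read 10.17 on this array, above the 9.60 to 9.89 of the other 5 arrays of 24 h. The 24 h medians of the set and of its complexes are therefore given below with all arrays and without this one.

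**Figure D3:**
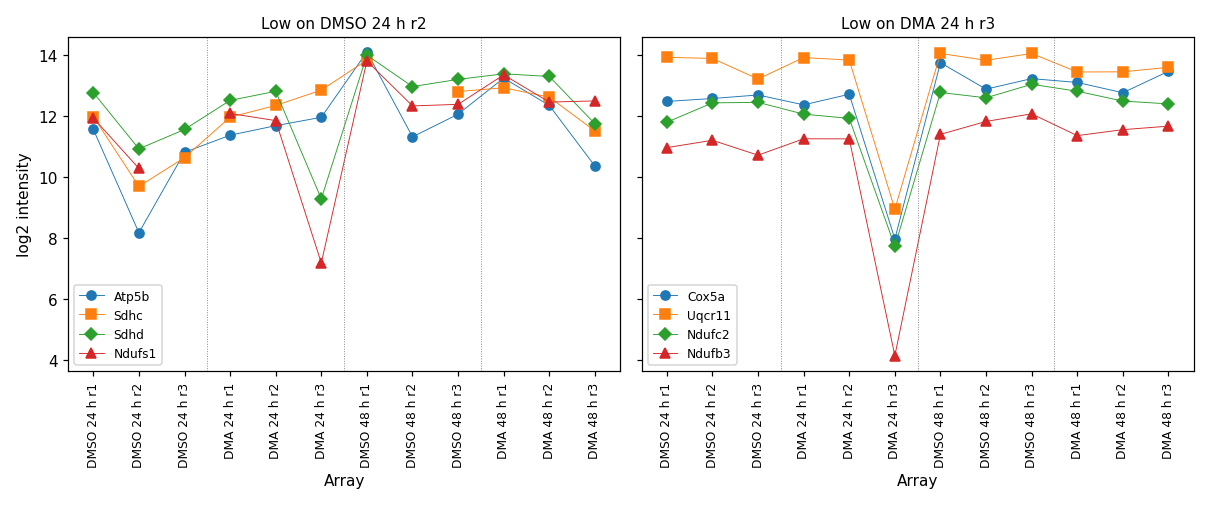
Log2 intensity (y axis) of 8 genes on the 12 arrays (x axis, dotted lines between groups). At left, Atp5b, Sdhc and Sdhd are lowest among the DMSO 24 h arrays on replicate 2, and at right Cox5a, Uqcr11, Ndufc2 and Ndufb3 are low on DMA 24 h replicate 3, where Ndufb3 reads 4.15.

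A test needed at least 2 values in each of the 4 groups, which 41 of the 85 genes had, among 35401 probes. These were 14 genes of complex I, 2 of complex II, 5 of complex III, 6 of complex IV, 4 of ATP synthase and the 10 assembly factors and non-subunits. The 44 others are described by their values alone. With limma and Benjamini-Hochberg adjustment over all probes, 0 of the 41 genes passed the threshold of 0.05 at 24 h, at 48 h or for the difference between the times. The background was the same: 0 probes (0.0%) were called in each of the 3 comparisons. Adjusted p-values from limma for the 41 genes were 0.871 to 0.975 at 24 h, 1 at 48 h and 0.999 for the difference.

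Without adjustment, Sdhc alone of the 41 genes (2.44%) was under 0.05 in limma at 24 h, against 1071 probes (3.03%) over the array. At 48 h 0 of the 41 were, against 494 probes (1.4%). For the difference between the times, 1 of the 41 was, again Sdhc (-2.58), against 695 probes. By direction at 24 h, 23 of 41 genes (56.1%) lay higher with DMA, where 55.8% of all probes did, and 18 lay lower, where 44.2% did. Their median difference was 0.11, or 0.22 without DMA 24 h replicate 3, and that of all probes was 0.09 and -0.03. Leaving out 1 array of 24 h gave 17 to 27 genes above 0, the fewest without DMSO 24 h replicate 3 (median -0.15). The direction over the 41 genes at 24 h thus lay near the background and turned with 1 array.

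At 48 h, 32 of 41 genes (78.0%) lay lower with DMA, where 48.4% of all probes did, and 9 lay higher, where 51.6% did. The median difference was -0.17, against 0.01 for all probes, and the lowest was -0.96 in Sdhc. Genes of this set are mostly bright. Among the 4178 probes with a mean of at least 10, 48.1% lay below 0, and of the 32 genes of the set at that level 26 did. Leaving out 1 array of 48 h gave 26 to 33 genes below 0, the fewest without DMSO 48 h replicate 1. Leaving out DMA 48 h replicate 3 gave 27 and a median of -0.07. By pair, over every gene of the set with both values, tested or not, the median was -0.31 in replicate 1 (24 of 30 genes lower), 0.02 in replicate 2 (18 of 40 lower) and -0.19 in replicate 3 (26 of 41 lower). Over all probes the medians of these pairs were 0.016, 0.0018 and 0.097, with 51.8%, 50.2% and 55.2% of probes higher. The genes share arrays, so these counts hold no separate test, and replicate 2 did not share the direction.

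**Figure D4:**
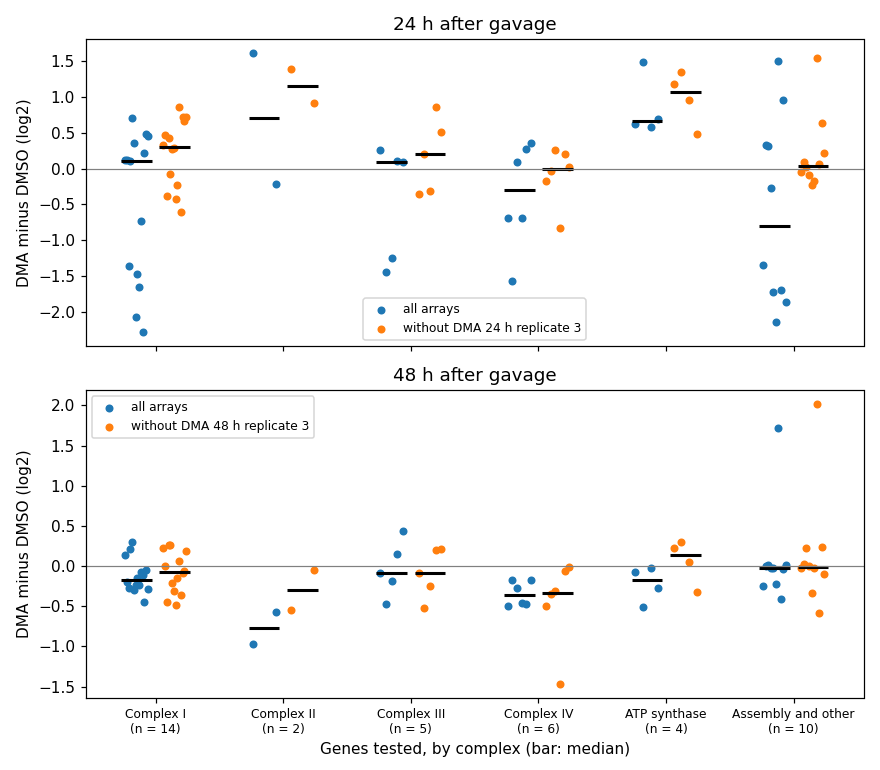
DMA minus DMSO in log2 units (y axis) of the 41 tested genes by complex (x axis) at 24 h (top) and 48 h (bottom). Each point is a gene and bars are medians, blue with all arrays and orange without DMA 24 h replicate 3 (top) or DMA 48 h replicate 3 (bottom). The 6 complex IV genes lie below 0 at 48 h in both versions, and the ATP synthase median moves from -0.18 to 0.14.

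Complex I takes electrons from NADH and is the largest of the complexes. Of its 14 tested genes, 8 lay higher and 6 lower at 24 h, with a median of 0.11, or 0.31 without DMA 24 h replicate 3, and 0 passed. This median turned to -0.22 without DMSO 24 h replicate 3, with 5 genes higher and 9 lower, and to -0.07 without either of the other DMA 24 h arrays. At 48 h, 3 lay higher and 11 lower, with a median of -0.17, or -0.08 without DMA 48 h replicate 3, and 0 passed. With the brightest probe of each gene, the range at 24 h was wide, from -2.28 in Ndufs3 to 0.71 in Ndufab1. It was narrow at 48 h, from -0.44 in Ndufs4 to 0.30 in Ndufab1.

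Ndufb2, a small subunit of the membrane arm (chr6:39592565-39599843), was the complex I gene whose groups separated at 24 h. It read 12.57, 12.64 and 12.63 in DMSO 24 h and 12.89, 12.90 and 13.11 in DMA 24 h. All 3 DMA arrays were above all 3 DMSO arrays, by 0.35 in the mean (SE 0.292, limma adjusted p = 0.871), or 0.28 without DMA 24 h replicate 3. The 48 h arrays read 13.72, 13.37 and 13.27 in DMSO and 13.13, 13.36 and 12.97 in DMA. These groups overlapped, each DMA array was below the DMSO array of the same number, and the difference was -0.30 (SE 0.292, limma adjusted p = 1).

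Ndufab1, the mitochondrial acyl carrier protein that is also a subunit of complex I, read 7.30, 7.46 and 7.82 in DMSO 24 h and 7.44, 7.46 and 9.79 in DMA 24 h. Its difference of 0.71 (SE 0.564, limma adjusted p = 0.871) came from replicate 3, without which it was -0.074. In the 48 h groups it read 8.53, 7.80 and 8.15 in DMSO and 8.65, 8.20 and 8.51 in DMA, higher in each pair and by 0.30 in the mean (limma adjusted p = 1). Its dimmer probe did not share this course. That probe read 7.30, 6.46 and 7.33 in DMSO 24 h and 7.26, 7.79 and 3.61 in DMA 24 h. In the 48 h pairs it was lower with DMA in replicate 2 (7.63 against 7.98) and near level in replicate 3 (8.54 against 8.51).

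Ndufb7, another membrane-arm subunit, read 11.03, 11.57 and 11.69 in DMSO 24 h and 10.96, 11.05 and 7.85 in DMA 24 h. The difference of -1.47 (SE 0.735, limma adjusted p = 0.871) was -0.42 without the low array. The 48 h arrays read 11.76, 11.60 and 12.23 in DMSO and 11.61, 11.15 and 12.41 in DMA, with overlap.

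Ndufs4, needed for a stable NADH-oxidising arm, read 13.91, 12.79 and 12.98 in DMSO 24 h and 14.05, 13.85 and 12.44 in DMA 24 h. Its groups overlapped, as they did at 48 h, when it read 13.93, 14.10 and 13.65 in DMSO and 13.48, 14.14 and 12.74 in DMA. Ndufs1, the largest iron-sulfur subunit, had 2 values in DMSO 24 h, 11.93 and 10.28, and read 12.07, 11.84 and 7.19 in DMA 24 h. Without the low array its 24 h difference turned from -0.73 to 0.86. Ndufv1, which binds NADH, lay higher in all 3 pairs at 24 h with a difference of 0.45, but its groups overlapped (limma adjusted p = 0.876). That difference was 0.22 without DMSO 24 h replicate 2, 0.80 without DMSO 24 h replicate 1 and 0.72 without DMA 24 h replicate 3. Among genes with too few values to test, Ndufa8 had 8 and Ndufs7 had 5. Ndufa8 read 14.32 and 14.06 on 2 DMSO 24 h arrays, 14.50, 14.41 and 7.84 in DMA 24 h, and 14.82, 14.72 and 13.73 in DMA 48 h. Ndufs7, a core iron-sulfur subunit, read 14.57 and 14.67 in DMSO 24 h, 13.67 on DMA 24 h replicate 3, and 14.91 and 14.68 in DMA 48 h. Neither had a value on any DMSO 48 h array.

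Complex II, succinate dehydrogenase, is shared with the citric acid cycle. Its membrane anchors Sdhc and Sdhd could be tested (median 0.70 at 24 h, or 1.14 without DMA 24 h replicate 3), and its catalytic subunits Sdha and Sdhb could not. Sdhc (chr1:171129157-171150640) read 11.97, 9.69 and 10.63 in DMSO 24 h, a mean of 10.77 ± 1.15 (SD, n = 3), and 11.95, 12.34 and 12.84 in DMA 24 h, a mean of 12.38 ± 0.444 (SD, n = 3). The groups overlapped by DMSO replicate 1, and the pairs differed by -0.02, 2.65 and 2.21. The difference was 1.61 (SE 0.618, limma adjusted p = 0.871), and 1.38 without DMA 24 h replicate 3. Over the arrays left out in turn it ran from 1.07 without DMSO 24 h replicate 2 to 2.22 without DMSO 24 h replicate 1. At 48 h Sdhc read 13.82 and 12.79 on 2 DMSO arrays and 12.92, 12.61 and 11.50 in DMA, a difference of -0.96 (limma adjusted p = 1), or -0.54 when DMA 48 h replicate 3 was dropped. The effect at 48 h minus that at 24 h had an adjusted p of 0.999 in limma.

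Sdhd followed a like course on the DMSO 24 h arrays, with 12.76, 10.92 and 11.55, and read 12.50, 12.80 and 9.29 in DMA 24 h. Its difference of -0.21 was 0.91 without DMA 24 h replicate 3. The later arrays read 13.98, 12.95 and 13.19 in DMSO and 13.37, 13.29 and 11.74 in DMA, and the difference of -0.58 was -0.05 without DMA 48 h replicate 3. Both anchors thus had a low reading on DMSO 24 h replicate 2 and on DMA 48 h replicate 3. Sdhb, the iron-sulfur subunit, had 7 values: 14.08 and 13.82 in DMSO 24 h, 14.47 and 13.58 in DMA 24 h, 14.52 in DMSO 48 h, and 14.79 and 14.66 in DMA 48 h. Sdha, the flavoprotein, had 3, at 14.56 in DMSO 24 h, 13.57 in DMA 24 h and 14.20 in DMA 48 h, each on replicate 3.

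Complex III had 5 tested genes, 3 higher and 2 lower at 24 h (median 0.09, or 0.20 without DMA 24 h replicate 3) and 2 higher and 3 lower at 48 h (median -0.09 with or without DMA 48 h replicate 3). None passed. The 24 h median turned below 0 when any of 4 other arrays was left out, to -0.29 (DMA replicate 1), -0.24 (DMA replicate 2), -0.13 (DMSO replicate 2) and -0.08 (DMSO replicate 3). It was -0.55 with the probe of most values for each gene, and the 48 h median was 0.14 without DMA 48 h replicate 2. Uqcr11, a small subunit with no redox centre (chr10:80402997-80406821), was the complex III gene whose 48 h groups separated. It read 14.04, 13.81 and 14.04 in DMSO 48 h and 13.43, 13.44 and 13.58 in DMA 48 h. All 3 DMA arrays were below all 3 DMSO arrays, and the means were 13.96 ± 0.129 and 13.48 ± 0.0863 (SD, n = 3 each).

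The 48 h difference of Uqcr11 was -0.48 with an SE of 1.02 in limma (adjusted p = 1), where the spread, pooled over the 4 groups, includes its low reading on DMA 24 h replicate 3. Without that array the SE was 0.248, and with the 6 arrays of 48 h alone it was 0.240, each with a limma adjusted p of 1. At 24 h it read 13.91, 13.87 and 13.20 in DMSO and 13.90, 13.82 and 8.95 in DMA. The difference of -1.44 (limma adjusted p = 0.871) turned to 0.20 without the low array, and the pairs differed by -0.01, -0.05 and -4.26. Over the 41 genes, the median SE at 48 h was 0.690 with all arrays, 0.347 without DMA 24 h replicate 3 and 0.332 with the 6 arrays of 48 h.

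Uqcrfs1, the Rieske iron-sulfur protein, read 14.37, 13.03 and 13.14 in DMSO 24 h and 14.42, 14.32 and 12.12 in DMA 24 h. Its groups overlapped, and its 48 h values spanned 14.43 to 14.68 in both groups together. Uqcrq, a small subunit, read 4.86 to 5.16 in DMSO 24 h and 4.33 to 5.80 in DMA 24 h, with overlap, and 5.01 to 5.53 in DMSO 48 h and 5.30 to 6.21 in DMA 48 h. Uqcrc2, a core protein, had 3 values, 14.64, 13.47 and 14.76 on the replicate 3 arrays of DMSO 24 h, DMA 24 h and DMA 48 h. Uqcrh, the hinge protein near cytochrome c1, had 2, 13.52 on DMA 24 h replicate 3 and 14.81 on DMA 48 h replicate 1.

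Complex IV had 6 tested genes, with 3 higher and 3 lower at 24 h (median -0.30, or -0.01 without DMA 24 h replicate 3). At 48 h all 6 lay lower with DMA, from -0.17 in Ndufa4l2 to -0.50 in Cox4i2, with a median of -0.36, and all 6 did so without DMA 48 h replicate 3 (median -0.33) or without DMSO 48 h replicate 2 (median -0.39). Leaving out another array turned 1 or 2 of the 6: 4 lay lower without DMSO 48 h replicate 3 (median -0.18), and 5 did so without DMSO 48 h replicate 1 (-0.29), DMA 48 h replicate 1 (-0.21) or DMA 48 h replicate 2 (-0.32). Cox7b2, a subunit 7b isoform, turned to 0.94 with DMA 48 h replicate 2 left out, Cox4i2 to 0.19 without DMA 48 h replicate 1, and Cox5a to 0.056 without DMSO 48 h replicate 1. With the replicate number as a block 5 of 6 did (median -0.22). None passed, at a smallest adjusted p of 1 in limma. By pair at 48 h, 7 of 7 measured complex IV genes were lower in replicate 1, 5 of 8 in replicate 2 and 4 of 6 in replicate 3. Over all probes 15992 of 33197, 17082 of 34298 and 15539 of 34698 were lower in these pairs.

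Several complex IV subunits exist as a heart and muscle isoform and a general one, and these were measured unevenly. Cox6a2, the heart isoform (chr7:128205435-128206366), had 12 values: 13.99, 14.12 and 13.38 in DMSO 24 h, 14.09, 14.07 and 13.58 in DMA 24 h, 13.90, 14.06 and 14.34 in DMSO 48 h, and 13.53, 14.05 and 13.92 in DMA 48 h. Its groups overlapped at both times, and at 48 h each pair was lower with DMA, with a mean difference of -0.27 (limma adjusted p = 1). Cox6a1, the general isoform, had 8 values, none of them on DMSO 24 h replicates 1 and 2 or DMSO 48 h replicates 1 and 3. It read 14.67 in DMSO 24 h, 14.47, 14.50 and 13.49 in DMA 24 h, 14.53 in DMSO 48 h, and 14.42, 14.44 and 14.79 in DMA 48 h.

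For subunit 8 the reverse held, and the general isoform was the measured one. Cox8a (chr19:7215158-7217616) read 12.51, 11.90 and 11.77 in DMSO 24 h and 12.40, 12.14 and 12.48 in DMA 24 h, and at 48 h 12.77, 13.03 and 12.88 in DMSO and 12.72, 12.94 and 11.60 in DMA. Each 48 h pair was lower, and the mean difference was -0.47 (SE 0.396, limma adjusted p = 1), or -0.07 with DMA 48 h replicate 3, its lowest array, left out. Cox8b, the heart isoform, had 1 value, 15.07 on DMA 24 h replicate 3.

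Of the isoforms of subunit 4, Cox4i1, the general form, had 2 values, 14.77 on DMSO 24 h replicate 3 and 13.53 on DMA 24 h replicate 3. Cox4i2, known from lung and low oxygen, read 8.74, 9.98 and 9.32 in DMSO 24 h and 8.98, 9.39 and 7.62 in DMA 24 h, and at 48 h 7.98, 9.02 and 10.17 in DMSO and 7.87 and 9.25 in DMA. Its groups overlapped at both times. Cox7a1, the heart form of subunit 7a, and Cox7a2, the general one, had only DMA 24 h replicate 3, at 11.12 and 9.82. Cox6b1 had only that array too, at 13.76, and its isoform Cox6b2 was not analysed here. Ndufa4l2, related to the complex IV subunit Ndufa4, which was not analysed here, read 9.52, 9.35 and 9.44 in DMSO 24 h and 9.62, 9.29 and 10.45 in DMA 24 h. Its 48 h values were 10.36, 10.24 and 10.13 in DMSO and 10.21, 10.25 and 9.75 in DMA, with overlap. Cox5a read 13.73, 12.87 and 13.21 in DMSO 48 h and 13.09, 12.75 and 13.45 in DMA 48 h, again with overlap. Cox7a2l had 10 values, the most of any gene not tested. It read 11.33 on DMSO 24 h replicate 3 alone, and 12.40, 12.31 and 12.35 in DMA 24 h. Its 48 h values were 12.91, 12.98 and 12.72 in DMSO and 12.66, 13.02 and 12.09 in DMA, with overlap.

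ATP synthase had 4 tested genes, all higher with DMA at 24 h, at a median of 0.66, or 1.07 without DMA 24 h replicate 3, and 0 passed (smallest adjusted p = 0.871 in limma). The median was 0.36 without DMSO 24 h replicate 2, with 3 of 4 higher, and 1.40 without DMSO 24 h replicate 1. At 48 h all 4 lay lower, at a median of -0.18, but 3 of the 4 lay higher without DMA 48 h replicate 3 (median 0.14). The pairs went apart. At 24 h the median of the 4 was 0.05 in replicate 1 and 1.91 in replicate 2 (4 of 4 higher). In replicate 3, where Atp5a1 had no pair, Atp5b differed by 1.14, Atp5c1 by 0.15 and Atp5g2 by 1.44. Atp5pb, which was not tested, was lower in that pair, by -1.82. At 48 h 2 of 2 were lower in replicate 1, 4 of 4 higher in replicate 2 and 4 of 4 lower in replicate 3.

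Atp5b, the catalytic beta subunit (chr10:128083307-128090388), read 11.56, 8.18 and 10.81 in DMSO 24 h and 11.36, 11.68 and 11.95 in DMA 24 h. DMSO replicate 2 was the low array, and the groups overlapped. The difference was 1.48 (SE 0.977, limma adjusted p = 0.871), 0.48 without DMSO 24 h replicate 2 and 2.17 without DMSO 24 h replicate 1. On the 48 h arrays it read 14.09, 11.31 and 12.05 in DMSO and 13.23, 12.34 and 10.36 in DMA, and the difference of -0.51 (limma adjusted p = 1) was 0.30 without DMA 48 h replicate 3.

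Atp5g2 encodes 1 of 3 precursors of the same mature ring subunit c, the others being Atp5g1 and Atp5g3. It read 12.52, 12.06 and 11.76 in DMSO 24 h and 12.56, 12.64 and 13.20 in DMA 24 h, with no overlap and each pair higher. The difference was 0.69 (SE 0.374, limma adjusted p = 0.871) and 0.49 without DMA 24 h replicate 3. At 48 h it read 13.76, 12.82 and 13.31 in DMSO and 12.70, 13.26 and 13.11 in DMA, with overlap and a difference of -0.27 (limma adjusted p = 1). Atp5g1 had 2 values, 9.46 on DMA 24 h replicate 3 and 14.22 on DMA 48 h replicate 3, and Atp5g3 had 11.34 on the first of these alone.

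Atp5c1, the gamma subunit that turns inside the catalytic head, was higher in each pair at 24 h by 0.58 in the mean (limma adjusted p = 0.871). This was 0.24 without DMSO 24 h replicate 2, 1.08 without DMSO 24 h replicate 1 and 0.96 without DMA 24 h replicate 3. Its arrays read 14.34, 12.65 and 13.03 in DMSO 24 h and 14.40, 14.19 and 13.17 in DMA 24 h, with overlap. Atp5a1, the alpha subunit, had 9 values, and its 24 h difference of 0.63 was 1.18 with DMA 24 h replicate 3 left out and turned to -0.47 without DMSO 24 h replicate 2, which read 12.16 where replicate 1 read 14.35. Of those not tested, Atp5l, subunit g, had 5 values, 14.36 in DMSO 24 h, 14.46 and 9.44 in DMA 24 h, and 14.56 and 14.48 in DMA 48 h. Atp5pb, subunit b of the stalk, had 4, at 13.81 and 13.99 in DMSO 24 h, 12.18 in DMA 24 h and 13.69 in DMA 48 h.

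Among the assembly factors and other non-subunits, 4 lay higher and 6 lower at 24 h (median -0.80, or 0.04 without DMA 24 h replicate 3), and 4 higher and 6 lower at 48 h (median -0.03, or -0.01 without DMA 48 h replicate 3). None passed. Ndufaf8, a complex I assembly factor, was higher without overlap at both times, but near the floor of the scale. It read -0.26, 3.82 and 3.80 in DMSO 24 h, the first being that array's lowest value, and 3.98, 4.01 and 3.84 in DMA 24 h. Its 48 h arrays read 1.03, 3.46 and 3.36 in DMSO and 5.02, 4.24 and 3.74 in DMA. The differences were 1.49 and 1.72 (SE 1.0 each, limma adjusted p = 0.871 and 1), and 0.13 without DMSO 24 h replicate 1 and 0.93 without DMSO 48 h replicate 1. Ndufs5-ps read 13.88, 13.79 and 13.93 in DMSO 48 h and 13.30, 13.27 and 13.79 in DMA 48 h, lower in each pair, with a mean difference of -0.41 (limma adjusted p = 1). The highest DMA array lay just under the lowest DMSO array, both at 13.79 when rounded, and the 24 h groups overlapped.

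Ndufaf6 read 10.23, 10.60 and 10.47 in DMSO 24 h and 10.15, 10.26 and 5.71 in DMA 24 h, lower in each pair. Its difference of -1.73 (SE 0.954, limma adjusted p = 0.871) was -0.23 without the low array. Ndufaf7 read 11.70, 11.25 and 11.47 in DMSO 48 h and 11.64, 11.26 and 10.86 in DMA 48 h, with overlap. Sdhaf2, which helps attach flavin to Sdha, read 9.98, 8.24 and 8.67 in DMSO 24 h and 9.70, 9.51 and 10.54 in DMA 24 h, with overlap, and differed by 0.95 (limma adjusted p = 0.871), or by 0.64 without DMA 24 h replicate 3. With DMSO 24 h replicate 1 left out it was 1.46.

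Counted over the set, 36 genes had 6 values at 24 h. DMA lay above DMSO without overlap in 3 of them, Atp5g2, Ndufaf8 and Ndufb2, against 3.6% of 29434 probes, and below in 0, against 2.36%. All 3 pairs were higher in 6 (Atp5c1, Atp5g2, Ndufab1, Ndufaf8, Ndufb2 and Ndufv1), against 13.8% of probes, and lower in 3 (Ndufaf6, Ndufb7 and Uqcr11), against 9.05%. At 48 h 25 genes had 6 values. DMA lay above without overlap in Ndufaf8, against 3.85% of 30095 probes, and below in Ndufs5-ps and Uqcr11, against 2.25%. All 3 pairs were higher in 2 (Ndufab1 and Ndufaf8), against 15.6%, and lower in 6 (Cox6a2, Cox8a, Ndufb2, Ndufb3, Ndufs5-ps and Uqcr11), against 11.1%. As shares of the genes with 6 values, non-overlap made up 8.33% above at 24 h and 4.0% above and 8.0% below at 48 h. Agreement of the 3 pairs made up 16.7% higher and 8.33% lower at 24 h, and 8.0% higher and 24.0% lower at 48 h. Each share rests on at most 6 genes.

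**Figure D5:**
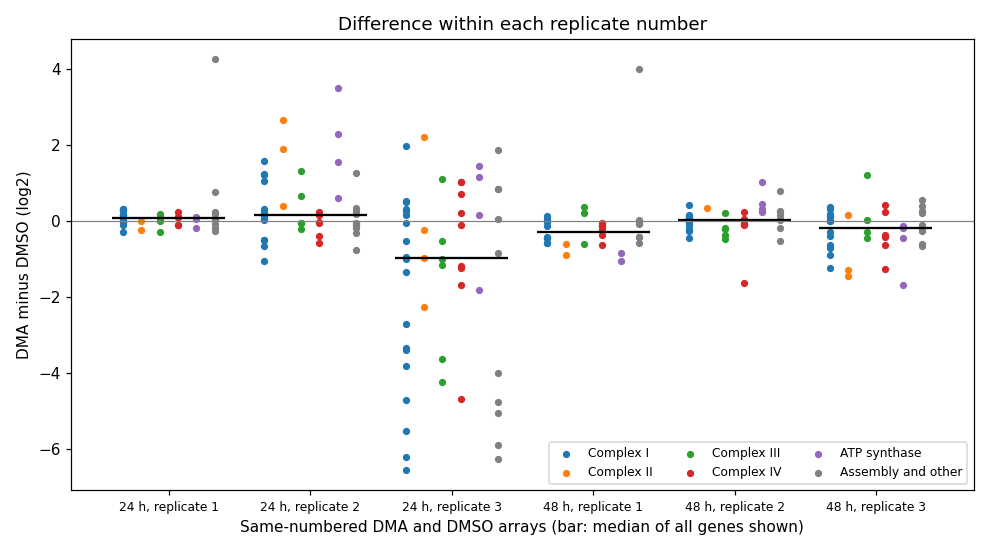
DMA minus DMSO in log2 units (y axis) within each replicate number at 24 h and 48 h (x axis), 1 point per gene with both values, coloured by complex, with the median of all genes shown as a bar. The median is near 0 in replicates 1 and 2 of 24 h (0.06 and 0.14), -0.97 in replicate 3 of 24 h, and -0.31, 0.02 and -0.19 in replicates 1 to 3 of 48 h.

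The arrays within a group differed for parts of the chain. On DMSO 24 h replicate 2, 11 of 38 genes (28.9%) were more than 1 log2 unit below replicate 1, against 15.7% of all probes, with Atp5b, Sdhc and Sdhd among them. On DMA 48 h replicate 3, 7 of 40 genes (17.5%) were that far below the mean of the other DMA arrays, against 14.3% of all probes. The same genes tended to be low on both. Across 34 genes these deviations, which share no array, correlated at 0.505, or 0.747 over 33 genes without Ndufaf8, and at 0.338 over all probes. Genes low on DMSO 24 h replicate 2 against replicate 1 also tended to be high on DMSO 48 h replicate 1 against replicates 2 and 3. This correlation was -0.841 over 24 genes, -0.744 over 23 genes without Ndufaf8 and -0.148 over all probes. DMSO 24 h replicate 3 was more than 1 below replicate 1 in 7 of 36 genes, against 3783 of 31604 probes. Low readings on replicate 2 and high ones on DMSO replicate 1 could therefore not be told apart. Citric acid cycle genes and markers of 3 cell types read low on DMSO 24 h replicate 2 and DMA 48 h replicate 3 too. No other marker list was lowest in its group on both. The mean of the 5 endothelial markers with 12 values was 9.26, 7.23 and 8.16 in DMSO 24 h and 9.99, 9.52 and 8.10 in DMA 48 h. The 2 cardiomyocyte markers with 12 values averaged 6.56, 4.62 and 5.28 in DMSO 24 h and 7.74, 6.70 and 5.87 in DMA 48 h. These 2 stand for little of their list, since 6 of its 11 genes on the array had at most 2 values. Array medians were 6.03 to 6.04 at 24 h and 6.35 to 6.36 at 48 h, so the 2 are not bright genes. The 4 fibroblast markers averaged 9.34, 8.12 and 9.10, then 10.57, 9.90 and 9.28. The mean of the 5 citric acid cycle genes with 12 values was 11.20, 8.64 and 10.10 in DMSO 24 h and 12.61, 12 and 10.45 in DMA 48 h. Other pathway lists were lowest on both arrays too. The 8 carriers that feed ubiquinone and cytochrome c averaged 9.21, 8.30 and 8.32 in DMSO 24 h and 9.71, 9.82 and 9.03 in DMA 48 h. For 3 genes of complex III assembly and cytochrome c1 the means were 8.98, 8.89 and 9.07, then 9.54, 9.68 and 9.29. At 48 h 0 of 9 endothelial markers lay higher (median -0.53), and 3 of 9 did so once DMA 48 h replicate 3 was left out (median -0.14), with 0 passing. Their part in the differences of complex II and ATP synthase was not tested.

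Of the 12 heart muscle markers 11 were on the array. Of these, 6 had at most 2 values and 2 of the 6 had none at all. The tissue is named by the sample labels, and few measured markers were left to set beside it. Over both times 4 of them could be tested, with 3 higher at 24 h and 2 at 48 h, and 0 passed. Markers of fibroblasts, smooth muscle and pericytes, macrophages, neutrophils, lymphocytes, adipocytes, skeletal muscle, lung and liver had medians from -0.35 (liver) to 0.42 (adipocytes) at 24 h and from -0.30 (macrophages) to 0.19 (lymphocytes) at 48 h, with 0 passing. Several of these turned with 1 array: without DMA 24 h replicate 3 the 24 h median of liver markers was 0.28 and that of neutrophil markers went from -0.29 to 0.67, and without DMA 48 h replicate 3 the 48 h median of macrophage markers was 0.29. The 1 erythroid marker tested differed by 0.47 at 24 h and -0.44 at 48 h.

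The wider pathway was read from lists of further genes, of which 0 passed at either time. Of 17 complex IV assembly genes, 9 lay higher and 8 lower at 24 h (8 and 9 without DMA 24 h replicate 3), and 6 higher and 11 lower at 48 h. Surf1, an assembly factor of complex IV, differed by 1.35 at 24 h (limma adjusted p = 0.871). Its arrays read 6.78 and 7.46 in DMSO 24 h and 8, 8.05 and 9.37 in DMA 24 h, with no overlap over the 5 values. Complex I assembly genes outside the set split 3 and 3 at 24 h and 2 and 4 at 48 h, and complex III assembly genes with cytochrome c1 split 3 and 3 at both times. Without DMA 24 h replicate 3 both lists split 4 and 2 at 24 h. Foxred1, a complex I assembly factor, read 8.41, 8.14 and 8.15 in DMSO 24 h and 8.50, 9.34 and 10.47 in DMA 24 h, again without overlap (difference 1.20, limma adjusted p = 0.871). Its nearest values were 8.41 in DMSO and 8.50 in DMA. In Surf1 and Foxred1 alike DMA 24 h replicate 3 read highest, and both were named for small p-values within their lists. Of the 29434 probes with 6 values at 24 h, 3.6% lay above DMSO without overlap. Cyc1, the cytochrome c1 subunit itself, read 14.11, 14.21 and 14.52 in DMSO 24 h and 14.12, 14.38 and 13.29 in DMA 24 h, and its groups overlapped.

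Assembly and inhibitor genes of ATP synthase had 1 higher and 3 lower at 24 h (2 and 2 without DMA 24 h replicate 3), and 3 higher and 1 lower at 48 h. Atpif1, the inhibitor of reverse ATP synthase action, read 13.11, 13.11 and 13.08 in DMSO 24 h and 13.78, 12.77 and 7.68 in DMA 24 h, low on the same array as the 14 genes above. Carriers that feed ubiquinone and cytochrome c had 8 higher and 6 lower at both times (6 and 8 at 24 h without that array). Regulators of mitochondrial biogenesis had 7 and 7 at 24 h (8 and 6 without it) and 5 and 9 at 48 h. Tfam, which packs and transcribes mitochondrial DNA, read 11.23, 11.16 and 11.29 in DMSO 24 h and 11.29, 11.55 and 5.89 in DMA 24 h, also low on that array. Ppargc1a, a coactivator of mitochondrial biogenesis, read 7.71, 6.91 and 6.11 in DMSO 48 h and 6.96, 7.38 and 5.76 in DMA 48 h, with overlap.

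Genes of the citric acid cycle, which supplies the chain with NADH and succinate, had 9 of 10 higher at 24 h (median 0.47) and 9 of 10 lower at 48 h (median -0.22). Without DMA 24 h replicate 3 all 10 lay higher at 24 h (median 1.00), and without DMA 48 h replicate 3 only 2 lay lower at 48 h (median 0.29). Ogdh, the E1 subunit of 2-oxoglutarate dehydrogenase, read 12.14, 9.67 and 10.89 in DMSO 24 h and 11.88, 12.20 and 12.72 in DMA 24 h, with the low DMSO array that Sdhc and Atp5b had. At 48 h it read 13.97, 12.48 and 12.26 in DMSO and 13.65, 12.71 and 11.21 in DMA, with overlap. As for ATP synthase, the sign of the 48 h median turned without DMA 48 h replicate 3.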

How the data were processed

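Expression was measured in 12 samples of mouse heart, 3 in each of 4 groups, as the labels give them. The deposited table held log2 intensities, with maxima between 14.53 and 15.12. The authors' background correction and normalization are not given in the sources used here. Symbols came from the platform annotation (21615 probes with 1 symbol, 681 with several, 13931 with none), and all 85 genes matched the RefSeq table of assembly GRCm38.p6. The 35401 probes with at least 2 values in each group entered a linear model with 1 term per group and all 12 arrays (lmFit and eBayes of limma 3.58.1, R 4.3.3). P-values were adjusted by Benjamini-Hochberg over these probes, and 0.05 was the threshold. The fit was tested on simulated data. Missing values were not filled. Plots used matplotlib 3.10.9 in Python 3.11.15.

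The genes and lists were chosen with earlier results of these data known. All genes of the set were to be accounted for. Values on every array were given for the genes of highest and lowest mean per complex, for those not tested with the most values, for isoform pairs, and for up to 4 tested genes per direction and time whose groups did not overlap or whose 3 pairs agreed. Pathway genes were named from the 2 smallest p-values per list and direction. Array values of Sdhc, Ndufs1, Uqcrfs1, Atp5c1 and Atp5a1 were added after they were seen. Few arrays limit the precision.

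The labels number the replicates 1 to 3 in each group. Over 25002 probes, deviations from the group means of same-numbered DMA and DMSO arrays correlated at 0.110 to 0.186 at 24 h and 0.266 to 0.329 at 48 h, and those of different numbers at -0.101 to -0.0117 and -0.208 to -0.0836. Since the same-number value exceeded 0.1 in each pair, arrays of 1 number were read as pairs, on the data alone, and differences within pairs are given. Deviations from a group mean cancel out within the group. Values of different numbers therefore fall as those of the same number rise, and they add no separate support. The printed SEs and p-values come from the fit without the block, and the block is an alternative. Alternatives covered filters on values and level, quantile normalization within a time, a trend along the probe numbers, the floor, array weights, an intensity trend, 1 time alone, the replicate block, the choice of probe, and leaving out arrays.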

Additional observations from a re-analysis of the deposited data

Results flagged for a closer look

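Ndufb2 stood out because all 3 DMA arrays were above their same-numbered DMSO arrays at 24 h and all 3 were below at 48 h. The effect at 48 h minus the effect at 24 h was -0.65, with an SE of 0.413 and an adjusted p of 0.999 in limma over all probes, so the difference between the times did not pass. The pairs differed by 0.31, 0.25 and 0.48 at 24 h and by -0.60, -0.01 and -0.30 at 48 h, and the sign in replicate 2 at 48 h rests on 0.01 log2 units.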

How the results depend on the processing

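Counts of called probes were 0 under the main settings and stayed at 0 for the 41 genes under each alternative run. Over all probes, leaving out 1 array gave 0 to 14 calls at 24 h (9 with DMA 24 h replicate 1 left out and 14 with replicate 2 left out, where DMA 24 h replicate 3 can be the only DMA value left), 0 to 1 at 48 h (without DMSO 48 h replicate 2 or DMA 48 h replicate 1) and 0 to 4 for the difference between the times (without DMA 24 h replicate 1 or 2). Without the replicate 3 arrays of DMA 24 h and DMA 48 h together, 3 probes were called at 48 h.

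Medians by complex rest on few genes, and several changed sign. Against main medians of 0.09 for complex III, 0.70 for complex II and -0.80 for assembly factors and non-subunits at 24 h, complex III gave -0.55 with the probe of most values, -0.57 with dim probes left out, -0.67 over probes with 12 values, -0.54 with no minimum of values and -0.058 with the trend along the probe numbers subtracted. Complex II gave -0.21 over probes with 12 values (1 gene) and -0.069 with no minimum, and assembly factors and non-subunits gave -1.69 over probes with 12 values. The complex I median at 24 h was -1.36 over probes with 12 values and -0.95 with no minimum of values, and the complex IV median was 0.18 over probes with 12 values and 0.085 with dim probes left out. Leaving out 1 array gave, at 24 h, -0.22 to 0.31 for complex I, 0.22 to 1.25 for complex II, -0.29 to 0.20 for complex III, -0.48 to -0.01 for complex IV, 0.36 to 1.40 for ATP synthase and -1.18 to 0.04 for assembly factors and non-subunits. It gave -0.39 to 0.14 for ATP synthase, -0.25 to 0.14 for complex III, -0.39 to -0.18 for complex IV and -0.13 to 0.013 for assembly factors and non-subunits at 48 h. This last median was -0.12 with the trend along the probe numbers subtracted and 0.079 as a mean. Ndufab1 at 24 h turned to -0.13 with array weights and to -0.074 without DMA 24 h replicate 3, alone or with DMA 48 h replicate 3, and spanned -0.074 to 1.10 over the arrays left out in turn. Uqcr11 at 24 h turned to 0.28 and 0.20 under the same settings, and spanned -2.28 to 0.20. The causes were not tested. Of the counts and medians under alternatives, 402 stayed within 1.5 times the main count or within 1 SD between arrays, which does not exclude a change of sign. Of the values of named genes, 291 kept their direction and their side of the threshold.

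With the replicate number as a block, 0 probes and 0 of the 41 genes were called at each time, the median of ATP synthase at 24 h was 0.93 and that of complex IV at 24 h was -0.09. The block changed no call.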
